A study of Mus musculus with 24 samples.

Results

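This report compares 6 of the 24 mouse livers of the series, each hybridised to its own whole-transcript Affymetrix array. The 3 livers labelled control and taken 28 days after bile duct ligation were set against the 3 livers labelled control and taken 40 days after diethylnitrosamine, over all 18820 genes of the deposited table. The samples were chosen by their titles alone. The remaining 18 livers carried knockouts that involve NEMO, JNK1 or JNK2 in several combinations, or were untreated livers labelled control and aged 52 weeks. No sham-operated liver and no vehicle-treated liver was analysed here, and the labels do not state how old the treated mice were. Surgery, the length of treatment and the carcinogen therefore cannot be told apart in the contrast. A difference in genetic background between the groups was not tested and could not be told apart from treatment either. The 6 mouse identifiers differ, so the replicates were separate animals. The identifiers of ligated livers 1 and 2 carry one prefix, and those of ligated liver 3 and all diethylnitrosamine livers carry another.

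The labels give the genotype of the 6 mice only as control. Per the labels' protocols, the colony drew on Alb-Cre mice, in which the albumin promoter drives the recombinase in hepatocytes, and on Jnk2-deficient mice of the C57BL/6 background. The JNK knockouts were Jnk1 LoxP/LoxP, Jnk2-/- animals, and NEMOf/f mice served as one of the named controls. Mapk9, which encodes JNK2, stood at 3.11, 3.06 and 3.12 on the log2 scale in the ligated livers and at 2.91, 3.41 and 3.15 after diethylnitrosamine. These values lie close to the 3.15 ± 0.17 and 3.07 ± 0.16 (SD, n = 3 each) of the JNK knockouts with the same treatments. Mapk9 signal was thus low in all 6 livers and did not separate the groups. It was also low in the untreated livers aged 52 weeks, at 3.28, 3.51 and 2.93. All these levels lie low in the array's range, so they do not show whether Mapk9 was intact in the livers labelled control. Mapk8, encoding JNK1, stood at 6.75, 6.84 and 6.55 and at 6.58, 6.63 and 6.36 in the same order. Ikbkg, encoding NEMO, stood at 7.28, 7.49 and 7.40 and at 7.48, 7.13 and 6.82. Neither gene passed the test, with limma adjusted p-values of 0.499 for Mapk8 and 0.502 for Ikbkg. All 6 livers had Y-linked transcripts (Uty 6.83 to 6.93) and low Xist (2.46 to 3.04).

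Ligation of the common bile duct stops the outflow of bile. Bile acids and pressure then build up behind the block, cholangiocytes multiply into new ductules, and portal fibroblasts and hepatic stellate cells turn into myofibroblasts that lay down collagen. Diethylnitrosamine is a carcinogen that pericentral cytochrome P450 enzymes convert into an alkylating agent, so that it damages the DNA of the hepatocytes that activate it. The first model is known for biliary fibrosis and the second for hepatocellular tumours that appear long after the dose.

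Relative to diethylnitrosamine, ligated livers had more transcript of fibrillar collagens, collagen cross-linking enzymes, stellate cell genes, the epithelial transcription factor Elf3 and the bile acid exporter subunit Slc51b. They had less transcript of the Cyp2c genes Cyp2c37 and Cyp2c54, of the pericentral genes Slc1a2 and Glul, of the major urinary protein genes Mup3 and Mup21 and of Akr1c18. In all, 327 genes were higher after ligation (1.74% of those tested) and 139 were lower (0.739%), together 2.48%, at a limma adjusted p under 0.05. A gene that passed is described here as called, and higher or lower means ligation relative to diethylnitrosamine. Of these, 199 were higher and 75 lower by at least 2-fold. The 3 livers of 1 group lay wholly above the other 3 for 24.9% of all genes (12.8% higher after ligation, 12.2% lower). That share is the background for every count of non-overlapping genes. All 466 called genes were without overlap, so non-overlap of a called gene adds nothing to its call. The first principal component held 51.4% of the variance and gave all ligated livers loadings of one sign (0.536, 0.459 and 0.177) and all diethylnitrosamine livers the other (-0.477, -0.37 and -0.326). Ligated liver 3 was the ligated liver nearest to the other group.

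The counts changed when single livers were left out, and each such fit also held fewer arrays. Without ligated liver 1, 49 genes were higher and 11 lower, and without ligated liver 2 the counts were 163 and 56. Leaving out ligated liver 3 raised them to 610 and 248. Without diethylnitrosamine liver 1, 2 or 3 there were 132, 45 or 81 higher and 102, 11 or 31 lower genes. Only 43 genes, 35 higher and 8 lower, were called in every one of these 6 fits. Of the 59 called genes picked by the naming rule given below, 15, 37 or 52 kept the call without ligated liver 1, 2 or 3. Without diethylnitrosamine liver 1, 2 or 3, 28, 14 or 23 of them kept it. With the identifier prefix as a term, which leaves ligated liver 3 alone against the diethylnitrosamine group, 10 genes were higher and 5 lower. Centring each array on its median moved the median difference of all genes by 0.114, from -0.026 to -0.14, and the share of higher genes among those called from 70.2% to 54.5%.

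**Figure D1:**
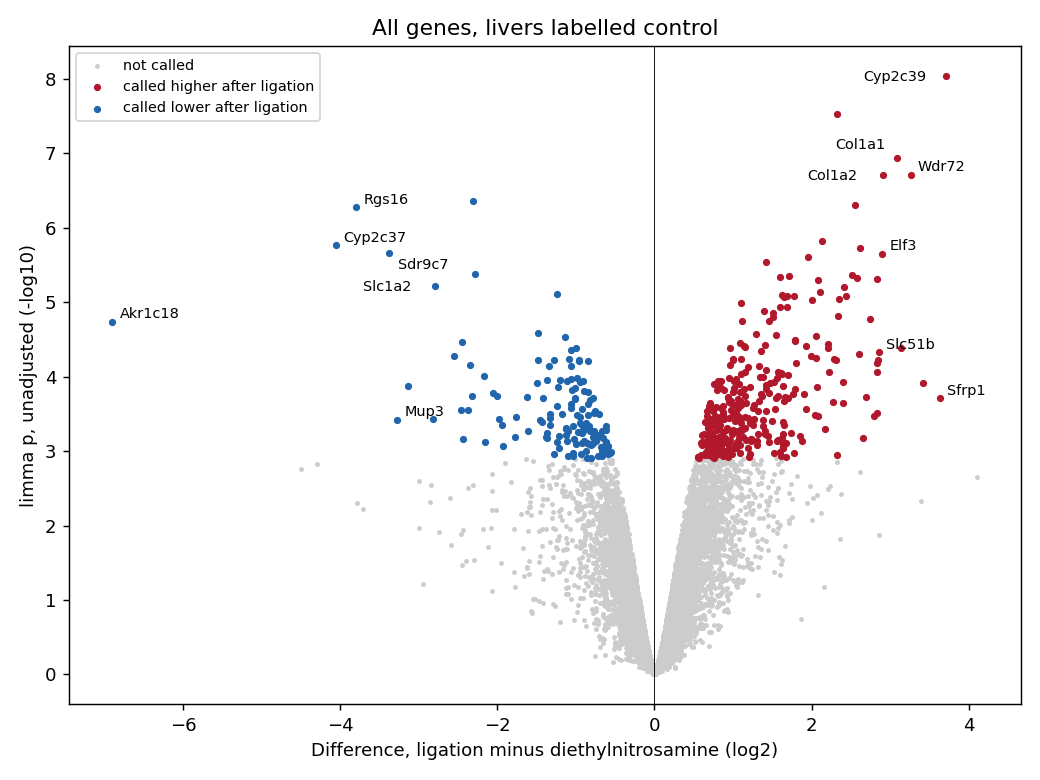
Difference in log2 expression between ligated and diethylnitrosamine livers labelled control (x axis) against the unadjusted limma p on a -log10 scale (y axis), 1 point per gene. The 327 genes called higher are red and the 139 called lower are blue. Cyp2c39 and Col1a1 stand at the upper right, Akr1c18 farthest to the left.

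Of 29 measured genes of fibrosis and matrix, 20 were called higher and 0 lower, with a median difference of 1.38. All 29 differences were positive, and the groups did not overlap for 24 of them. The mean level of the list was 8.14, 7.86 and 7.59 in the ligated livers, 6.27, 6.33 and 6.32 after diethylnitrosamine, and 6.24, 6.79 and 6.11 in the untreated livers aged 52 weeks. The diethylnitrosamine livers were therefore near the untreated ones on this list, and each ligated liver was above both groups. In bulk RNA, more cells of a type and more RNA per cell cannot be told apart. The number of called members was 20 without ligated liver 3, 13 without ligated liver 2 or diethylnitrosamine liver 1, 9 without diethylnitrosamine liver 3, and 7 without ligated liver 1 or diethylnitrosamine liver 2. It was 2, with a median of 1.05, when the identifier prefix was a term.

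Col1a1 and Col1a2 encode the chains of type I collagen, the main fibrillar collagen of scar tissue. Col1a1 stood at 9.56, 9.14 and 9.03 after ligation and at 6.15, 6.31 and 6.01 after diethylnitrosamine. Its untreated levels at 52 weeks were 6.06, 7.81 and 6.04, so that 1 untreated liver was higher than the diethylnitrosamine group but none reached a ligated liver. The difference was 3.09 ± 0.17 (limma SE, adjusted p = 0.000729), an 8.49-fold ratio. Col1a2 stood at 9.26, 9.06 and 8.67 against 6.19, 6.11 and 5.95, a difference of 2.91 ± 0.17 (limma adjusted p = 0.000736). Both genes were called in all 6 fits that left out 1 liver. Col3a1, the other fibrillar collagen of early scar, stood at 9.34, 8.23 and 8.91 against 6.15, 6.39 and 5.72 and was also called in all 6.

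Lum encodes lumican, a proteoglycan that binds collagen fibrils. It stood at 8.91, 8.05 and 8.20 after ligation and at 5.68, 5.21 and 5.79 after diethylnitrosamine. The lowest ligated liver was more than 2 log2 units above the highest of the other group, and the difference was 2.83 ± 0.25 (limma adjusted p = 0.00432). Lox, lysyl oxidase, and Loxl1, a relative of it, cross-link collagen and elastin. Lox stood at 6.04, 6.77 and 5.14 against 2.97, 3.17 and 3.27, a difference of 2.85 ± 0.36 (limma adjusted p = 0.0143). Its diethylnitrosamine levels lie low in the array's range, where differences can be compressed, so the 7.19-fold ratio may be an understatement. Loxl1 stood at 6.46, 6.33 and 5.92 against 4.32, 4.45 and 3.91 and was called in all 6 fits that left out 1 liver, whereas Lox was called in 3 of the 6 such fits.

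The largest difference among called members of the list was that of a protease. Mmp2, a gelatinase, stood at 8.15, 9.03 and 7.32 after ligation and at 4.86, 5.12 and 5.13 after diethylnitrosamine. Ligated liver 3 was the lowest of its group, as it was for Lox, but stayed clear of the other group. The difference was 3.13 ± 0.38 (limma adjusted p = 0.0127), an 8.78-fold ratio, and it was called in 4 of the 6 fits that left out 1 liver. Timp1, an inhibitor of such proteases, stood at 6.97, 6.34 and 6.03 against 4.20, 3.87 and 3.95, a difference of 2.44 ± 0.23 (limma adjusted p = 0.00523). Among the 9 members that were not called, differences ran from 0.11 to 1.61. They included Tgfb1, the main fibrogenic cytokine (8.52, 7.95 and 8.20 against 7.30, 7.67 and 7.84, limma adjusted p = 0.143), Ccn2, its target (7.67, 7.96 and 7.46 against 7.57, 6.83 and 7.13), and Fn1, fibronectin (12.26, 12.31 and 11.91 against 11.91, 11.99 and 12.25). The groups overlapped for Ccn2 and Fn1 and did not for Tgfb1.

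Of 23 genes of stellate cells and myofibroblasts, 10 were called higher and 0 lower, with a median difference of 0.87. Pdgfrb, the platelet-derived growth factor receptor of stellate cells, stood at 8.74, 8.25 and 8.51 against 6.69, 6.90 and 6.79, a difference of 1.71 ± 0.15 (limma adjusted p = 0.00432). Hgf, the hepatocyte growth factor that these cells secrete, stood at 8.97, 8.63 and 8.49 against 7.32, 7.01 and 7.22, a difference of 1.51 ± 0.16 (limma adjusted p = 0.00742). Cygb, a stellate cell globin, stood at 8.68, 8.24 and 7.87 against 6.34, 6.63 and 6.46. All 3 genes separated the groups without overlap, as every called gene did. Every ligated liver was also above the untreated livers aged 52 weeks, where Pdgfrb was 6.40 to 7.22 and Hgf 6.85 to 7.16.

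Acta2, the smooth muscle actin that marks myofibroblasts, showed another order. It stood at 8.42, 7.94 and 7.52 after ligation and at 6.54, 6.49 and 6.49 after diethylnitrosamine, a difference of 1.46 ± 0.21 (limma adjusted p = 0.0218). The untreated livers aged 52 weeks had 7.72, 7.42 and 8.39, within the ligated range or near it and above every diethylnitrosamine liver. Its call remained in 1 of the 6 fits that left out 1 liver. Leaving out livers also changed the count for the list, which was 11 without ligated liver 3, 5 without ligated liver 2, 4 without diethylnitrosamine liver 1, 3 without ligated liver 1 or diethylnitrosamine liver 3, and 2 without diethylnitrosamine liver 2. With the identifier prefix as a term 0 members were called, and the median was 0.70. Sfrp1, which encodes a secreted Wnt antagonist and was the second largest rise of all, stood at 7.50, 8.45 and 5.89 against 3.67, 3.68 and 3.58. Ligated liver 3 was again the lowest, and Sfrp1 kept its call in 2 of 6 fits.

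**Figure D2:**
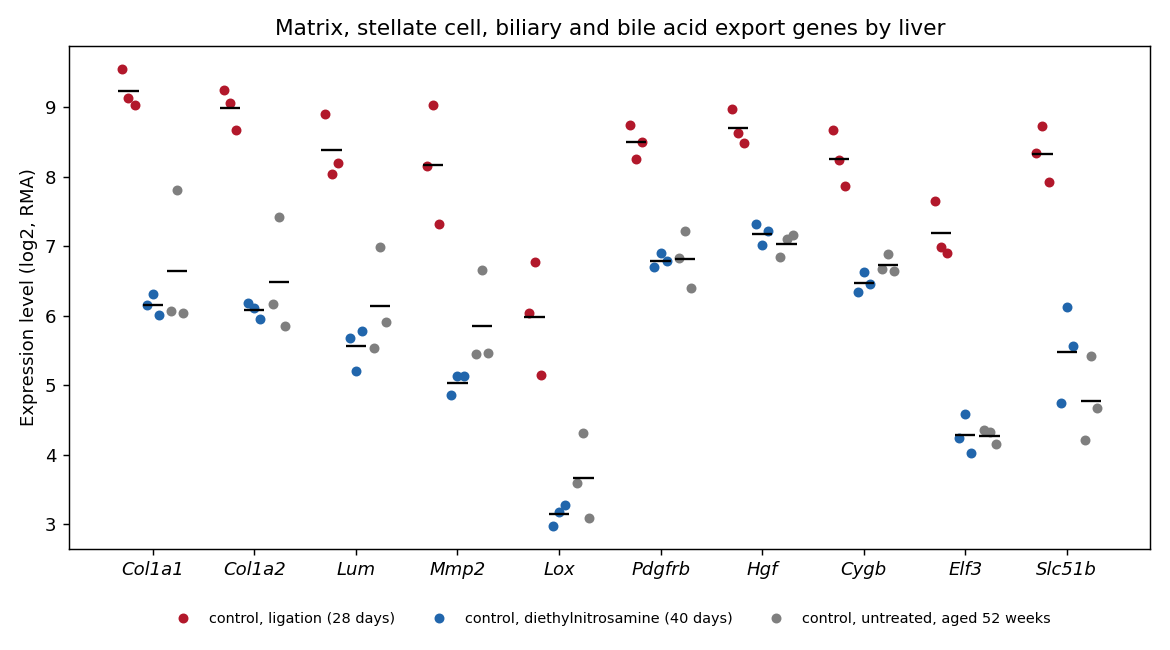
Log2 expression by liver for 10 matrix, stellate cell, biliary and bile acid export genes. Red points are ligated livers, blue diethylnitrosamine livers and grey untreated livers aged 52 weeks, 3 each and all labelled control. Black bars are means. For all 10 genes the red points lie above the blue ones, by 3.09 for Col1a1 and 1.51 for Hgf on average.

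Biliary genes were higher in part. Of 21 measured biliary epithelium genes, 5 were called higher and 0 lower, with a median difference of 1.23, and 19 differences were positive. The 16 members that were not called differed by -2.86 to 2.16, and for 1 of them every ligated liver was the lower. With the identifier prefix as a term the median was 0.74. The mean level of the list was 6.63, 6.51 and 5.94 after ligation, 4.96, 5.73 and 5.63 after diethylnitrosamine, and 4.80, 5.36 and 5.06 in untreated livers. Each ligated liver was above each of the others, with ligated liver 3 and diethylnitrosamine liver 2 closest. The count was 11 without ligated liver 3 and 1 without any other liver, and without diethylnitrosamine liver 1 there were also 2 members called lower.

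Elf3, an epithelial transcription factor of the ETS family, stood at 7.66, 6.99 and 6.90 against 4.24, 4.59 and 4.02. The difference of 2.90 ± 0.23 (limma adjusted p = 0.00324) was called in all 6 fits that left out 1 liver, and untreated livers (4.35, 4.33 and 4.15) were at the diethylnitrosamine level. Krt7, a cholangiocyte keratin, stood at 6.40, 5.94 and 5.49 against 4.32, 4.85 and 4.76, and Cftr, the chloride channel of bile ducts, at 4.48, 3.94 and 3.50 against 2.79, 2.71 and 2.73. Both were called, with limma adjusted p-values of 0.0406 and 0.0388, and both lost the call in 5 of 6 fits. Krt19, the keratin most used to stain ducts, stood at 6.80, 7.38 and 5.60 against 4.90, 4.62 and 5.05. Its groups did not overlap, but the difference of 1.74 ± 0.40 was not called (limma adjusted p = 0.0706). Sox9, a progenitor and ductal transcription factor, differed by 1.24 ± 0.34 (limma adjusted p = 0.106), with 7.37 in diethylnitrosamine liver 2 close to the 7.58 of ligated liver 3.

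Among 19 mucosal secretory genes, 3 were called higher and 0 lower. The median difference of 0.06 turned to -0.06 when arrays were centred. Sprr1a, a cornified envelope protein of stressed epithelia, stood at 8.18, 7.46 and 9.50 against 4.61, 5.46 and 4.80, a difference of 3.42 ± 0.48 (limma adjusted p = 0.0191). Here ligated liver 3 was the highest. Gabrp, a GABA receptor subunit of ductal epithelia, stood at 6.40, 6.85 and 4.86 against 3.51, 2.99 and 3.20, with ligated liver 3 the lowest. Without ligated liver 1 or diethylnitrosamine liver 2 or 3 none of the 19 was called, without ligated liver 2 or diethylnitrosamine liver 1 the count was 1, and without ligated liver 3 it was 5.

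Bile acid handling showed few calls. Slc51b encodes the beta subunit of the basolateral exporter that returns bile acids to blood, a target of the bile acid receptor FXR. It stood at 8.34, 8.73 and 7.92 after ligation, at 4.75, 6.13 and 5.56 after diethylnitrosamine, and at 4.21, 5.43 and 4.67 in untreated livers. The ligated livers lay above both other groups, and the difference was 2.85 ± 0.35 (limma adjusted p = 0.0136), a 7.23-fold ratio that was called in 5 of 6 fits. Of 20 bile acid transporters it was the 1 called higher. Abcc6, a hepatocyte transporter whose loss causes ectopic mineralisation, was the 1 called lower (6.60, 6.40 and 7.03 against 7.74, 7.69 and 7.80), in 1 of 6 fits without a liver. Abcb11, the canalicular bile salt pump, stood at 10.47, 10.28 and 10.87 against 10.65, 10.53 and 10.40, with overlapping groups and a difference of 0.01 ± 0.17. Slc10a1, the uptake carrier, stood at 10.81, 11.49 and 10.89 against 12.05, 11.49 and 11.47 (limma adjusted p = 0.21).

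Of 21 genes of bile acid synthesis and conjugation, 0 were called higher and 2 lower, with a median of -0.26. Cyp7b1, the oxysterol hydroxylase of the alternative pathway, stood at 6.82, 6.48 and 7.64 against 9.22, 9.16 and 8.39, and fell by 1.95 ± 0.33 (limma adjusted p = 0.0315). Klb, the co-receptor through which FGF15 restrains bile acid synthesis, stood at 6.95, 7.43 and 6.74 against 8.09, 7.87 and 7.96. Both kept the call in 1 of the 6 fits that left out 1 liver. The count of 2 was 3 without ligated liver 3, 1 without ligated liver 2 and 0 without any other liver, and the median ran from -0.15 without diethylnitrosamine liver 1 and -0.16 without ligated liver 2 to -0.41 without diethylnitrosamine liver 3 and -0.39 without ligated liver 3. Cyp7a1, the rate-limiting enzyme of the classic pathway, stood at 6.34, 7.51 and 9.08 after ligation and at 9.11, 9.64 and 8.96 after diethylnitrosamine. Ligated liver 3 lay inside the other group, and the difference of -1.60 ± 0.60 was not called (limma adjusted p = 0.206). Cyp8b1, which makes cholic acid, was as scattered, at 6.59, 4.71 and 7.94 against 9.94, 8.73 and 7.45.

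Some myeloid genes were called higher, and no lymphoid gene was. Of 23 macrophage and Kupffer cell genes, 4 were called higher and 0 lower, with a median of 0.61. Cd14, the co-receptor for bacterial lipopolysaccharide, stood at 9.32, 9.28 and 8.20 against 5.40, 6.50 and 6.39, a difference of 2.84 ± 0.38 (limma adjusted p = 0.0175). Gpnmb, a glycoprotein of lipid-laden and scar-associated macrophages, stood at 6.58, 7.73 and 6.20 against 4.63, 4.55 and 4.53, and Lgals3, galectin-3, at 8.81, 8.87 and 8.57 against 7.37, 8.09 and 7.64. The groups did not overlap for these 3 genes, as for every called gene. The count was 5 without ligated liver 3 and 3 without ligated liver 2. It was 1 without diethylnitrosamine liver 1 and 0 without ligated liver 1 or diethylnitrosamine liver 2 or 3. The 19 members that were not called, among them the Kupffer cell genes Clec4f, Timd4, Vsig4 and Adgre1, differed by -0.70 to 1.25.

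All 17 neutrophil genes had positive differences, with a median of 0.97 (0.61 without ligated liver 1), but 1 was called. That gene was Lcn2, lipocalin 2, an iron-chelating acute phase protein that hepatocytes also secrete. It stood at 12.90, 12.91 and 12.68 against 11.36, 11.87 and 11.83, and the untreated livers ranged from 7.78 to 11.74. The 8 measured MHC class II genes had a median of 0.93 with 0 called. H2-Aa stood at 10.66, 9.86 and 10.32 against 8.96, 9.67 and 8.64, without overlap (limma adjusted p = 0.084), and Cd74, the invariant chain, at 11.27, 10.62 and 10.96 against 9.62, 10.43 and 9.42 (limma adjusted p = 0.0845). Of 20 T and NK cell genes 0 were called (median -0.16). Of 16 B and plasma cell genes 1 was called lower, Pax5 (2.92, 2.90 and 3.11 against 3.85, 3.77 and 3.51). The ligated levels of Pax5 lie at the low end of the array's range.

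Of 21 genes of sinusoidal endothelium, 1 was called in each direction. Clec4g, a lectin of sinusoidal endothelial cells, stood at 7.68, 7.38 and 8.70 against 9.56, 9.56 and 9.97, and fell by 1.77 ± 0.32 (limma adjusted p = 0.0377). Lamb1, a laminin chain of basement membranes, stood at 7.16, 6.63 and 6.78 against 6.13, 5.86 and 5.91. The median of the list was -0.09. Each of these calls remained in 1 of the 6 fits that left out 1 liver.

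Most of the lower genes named here are known as hepatocyte genes, while the mean level of 21 general hepatocyte genes was alike: 11.96, 11.92 and 11.93 after ligation and 12.08, 11.88 and 11.89 after diethylnitrosamine. Alb, albumin, stood at 13.23, 13.17 and 13.23 against 13.24, 13.21 and 13.28, near the top of the array's range, where differences may be compressed. Of that list 0 genes were called. Cebpa, a hepatocyte transcription factor, had the smallest p, with 8.31, 8.54 and 9.03 against 9.37, 9.44 and 9.59 (limma adjusted p = 0.068).

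Genes of hepatocytes around the central vein gave 3 calls, all lower after ligation. Of 22 pericentral genes, 0 were called higher and 3 lower, the median difference was -0.68, and 20 of the 22 differences were negative. Among 18 periportal genes 0 were called, and their median of 0.08 turned to -0.04 when arrays were centred. Slc1a2, a glutamate transporter of the last hepatocytes before the central vein, stood at 5.67, 6.36 and 5.75 after ligation, 9.20, 8.55 and 8.42 after diethylnitrosamine and 8.65, 8.58 and 9.14 in untreated livers. It fell by 2.80 ± 0.26 (limma adjusted p = 0.00489) and was called in all 6 fits that left out 1 liver. Glul, the glutamine synthetase of the same cells, stood at 9.80, 10.26 and 9.95 against 11.53, 11.12 and 11.06, a difference of -1.23 ± 0.18 (limma adjusted p = 0.0206). Cyp2e1, the cytochrome P450 that activates diethylnitrosamine, stood at 11.65, 12.04 and 11.83 against 12.84, 12.60 and 12.58, with untreated livers at 12.61 to 12.79. For all 3 genes the diethylnitrosamine livers were near the untreated ones and the ligated livers were lower. The count of 3 was 4 without ligated liver 3 and 1 without ligated liver 1 or diethylnitrosamine liver 2 or 3.

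Drug-metabolising cytochromes P450 moved in both directions within 1 subfamily. Of 26 xenobiotic P450 and receptor target genes, 1 was called higher and 5 lower, with a median of -0.38. The 5 lower genes were Cyp2c37, Cyp2c54, Cyp2c29, Cyp2c50 and Cyp2e1, and the higher one was Cyp2c39. Cyp2c37 stood at 7.04, 7.87 and 6.48 after ligation, at 11.08, 11.15 and 11.31 after diethylnitrosamine, and at 10.28, 10.62 and 11.41 in untreated livers. It fell by 4.05 ± 0.31 (limma adjusted p = 0.00316), which makes it 16.6-fold higher after diethylnitrosamine, and it was called in all 6 fits that left out 1 liver. Cyp2c54 stood at 6.68, 7.33 and 6.73 against 9.98, 9.64 and 8.77, a difference of -2.55 ± 0.32 (limma adjusted p = 0.0143). Cyp2c29 and Cyp2c50 fell by 2.17 ± 0.29 and 2.00 ± 0.30, with limma adjusted p-values of 0.0187 and 0.0227. The count of lower genes was 6 without ligated liver 3, 3 without diethylnitrosamine liver 3 and 1 without ligated liver 1 or diethylnitrosamine liver 2.

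Cyp2c39, an arachidonic acid and retinoic acid hydroxylase, was the largest rise of all and had the smallest adjusted p. It stood at 10.95, 11.34 and 10.95 after ligation and at 7.45, 7.26 and 7.37 after diethylnitrosamine. The difference was 3.72 ± 0.14 (limma adjusted p = 0.00017), a 13.2-fold ratio, and it was called in all 6 fits. The untreated livers stood at 4.96, 7.49 and 6.42, below every ligated liver. Cyp2c genes lie side by side on chromosome 19 and are similar in sequence. Whether their probe sets cross-hybridise was not tested.

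The start regions of 3 of these Cyp2c genes are shown because they include the largest rise and the largest fall of the subfamily, with Cyp2c50 beside them as a second gene that was lower. Each is the 250 bases before a RefSeq start on the plus strand of GRCm38.p6, at chr19:39992174-39992423 for Cyp2c37, chr19:40089429-40089678 for Cyp2c50 and chr19:39510572-39510821 for the second of 2 Cyp2c39 starts in the table. Capitals mark CCAAT on either strand, the core of a common promoter element.
Cyp2c37: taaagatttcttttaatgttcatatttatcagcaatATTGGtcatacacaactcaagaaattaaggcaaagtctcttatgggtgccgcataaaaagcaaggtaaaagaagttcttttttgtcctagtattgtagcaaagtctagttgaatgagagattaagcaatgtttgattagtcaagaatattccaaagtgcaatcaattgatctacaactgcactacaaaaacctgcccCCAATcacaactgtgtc
Cyp2c50: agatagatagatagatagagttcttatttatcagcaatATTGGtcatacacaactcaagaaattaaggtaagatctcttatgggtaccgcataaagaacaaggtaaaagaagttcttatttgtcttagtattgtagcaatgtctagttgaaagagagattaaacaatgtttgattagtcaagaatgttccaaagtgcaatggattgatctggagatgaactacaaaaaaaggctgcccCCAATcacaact
Cyp2c39: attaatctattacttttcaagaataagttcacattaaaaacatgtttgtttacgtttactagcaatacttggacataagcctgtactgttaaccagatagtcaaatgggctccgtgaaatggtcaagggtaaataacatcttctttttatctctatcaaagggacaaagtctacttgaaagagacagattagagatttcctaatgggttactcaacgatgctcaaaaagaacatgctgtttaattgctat
The Cyp2c37 window held 2 such matches, beginning 214 and 17 bases upstream of the start, and the Cyp2c50 window held 2, at 212 and 12 bases. This Cyp2c39 window held 0, and the count for the other Cyp2c39 start is not given here. CCAAT on either strand occurs in 33.8% of the 32851 RefSeq windows of this length, and 2 or more matches occur in 10.1%. In global alignment the Cyp2c37 and Cyp2c50 windows were 84.3% identical. The window of Cyp2c29, which was also lower, was 54.5% and 55.9% identical to those of Cyp2c37 and Cyp2c50, and 74.1% and 68.1% identical to those of the first and second Cyp2c39 start. The Cyp2c39 windows were 56.8% and 52.5% identical to Cyp2c37 and 58.1% and 52.7% to Cyp2c50. The window of Cyp2c68, another lower gene, was 50.8% and 51.2% identical to those of Cyp2c37 and Cyp2c50. It was 49.7% and 58.6% identical to those of the first and second Cyp2c39 start. The closest pair, Cyp2c37 and Cyp2c50, thus shared a direction, whereas the Cyp2c29 window was nearer to those of Cyp2c39. The Cyp2c68 window was nearest to the second Cyp2c39 start. CCAAT counts for Cyp2c29 and Cyp2c68 are not given here. The relation of identity to direction was not tested in these few windows.

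The largest fall of all was Akr1c18, a 20-alpha-hydroxysteroid dehydrogenase that inactivates progesterone. It stood at 3.29, 3.96 and 2.98 after ligation, at 8.37, 11.19 and 11.37 after diethylnitrosamine, and at 4.24, 5.28 and 3.82 in untreated livers. Here the ligated livers were near the untreated ones and the diethylnitrosamine livers stood far above both. The difference was -6.90 ± 0.74 (limma adjusted p = 0.00778), a 119.6-fold ratio, and 4 of 6 fits without 1 liver called it. The ligated levels lie low in the array's range, where differences can be compressed, so the ratio may be an understatement. The gene was 1 of 19 on the list of oncofetal and liver tumour markers, of which 2 were called lower (with Glul) and 1 higher. The higher one was Cd44, a hyaluronan receptor (7.89, 7.13 and 7.22 against 5.95, 6.02 and 6.15). The 3 highest list means were those of diethylnitrosamine livers 2 and 3 (7.17 and 7.35) and ligated liver 2 (6.00).

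Rgs16 and Sdr9c7 were as consistently lower after ligation. Rgs16, a regulator of G protein signalling whose liver transcript responds to fasting and feeding, stood at 6.29, 5.62 and 6.67 against 10.06, 9.82 and 10.09, and fell by 3.80 ± 0.25 (limma adjusted p = 0.00124). Sdr9c7, a short-chain dehydrogenase, stood at 4.29, 4.57 and 5.30 against 8.34, 7.77 and 8.18, and fell by 3.38 ± 0.27 (limma adjusted p = 0.00324). Both were called in all 6 fits, and their untreated levels (8.57 to 9.74 for Rgs16, 8.59 to 9.16 for Sdr9c7) were above every ligated liver. The other large falls were Serpina4-ps1 (-2.82), a serpin pseudogene, Retsat (-2.46), retinol saturase, Fam47e (-2.45) and Acot3 (-2.44), a peroxisomal acyl-CoA thioesterase.

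Of 22 genes that male livers express above female livers, 0 were called higher and 4 lower, with a median of -0.74. Mup3, a major urinary protein secreted for scent marking, stood at 6.92, 7.63 and 9.04 after ligation, 11.92, 10.95 and 10.55 after diethylnitrosamine and 11.62, 11.80 and 12.19 in untreated livers. Mup21 stood at 3.56, 3.28 and 3.91 against 7.77, 6.57 and 5.80, and Hsd3b2, a steroid dehydrogenase, at 4.14, 4.81 and 5.41 against 6.56, 6.68 and 6.40. For Mup21 and Hsd3b2 the diethylnitrosamine livers lay between the ligated livers and the untreated ones, which had 7.81 to 8.29 and 7.69 to 8.73. Mup genes form a multigene family whose members can share probes. The limma adjusted p-values were 0.0295 for Mup3, 0.0202 for Mup21 and 0.0292 for Hsd3b2, and leaving out ligated liver 1 or 2 or diethylnitrosamine liver 2 left 0 of the 22 called. With ligated liver 3 left out the count was 4, and without diethylnitrosamine liver 1 or 3 it was 1. The median was -0.26 without diethylnitrosamine liver 1, -0.49 without ligated liver 2, -1.19 without diethylnitrosamine liver 3 and -0.09 with the identifier prefix as a term. Of 21 female-biased genes 2 were called lower, the thioesterases Acot3 and Acot4, with a median of -0.30. That count was 3 without diethylnitrosamine liver 1 and 0 without ligated liver 1 or 3 or diethylnitrosamine liver 2 or 3, and the median was -0.16 without diethylnitrosamine liver 3.

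**Figure D3:**
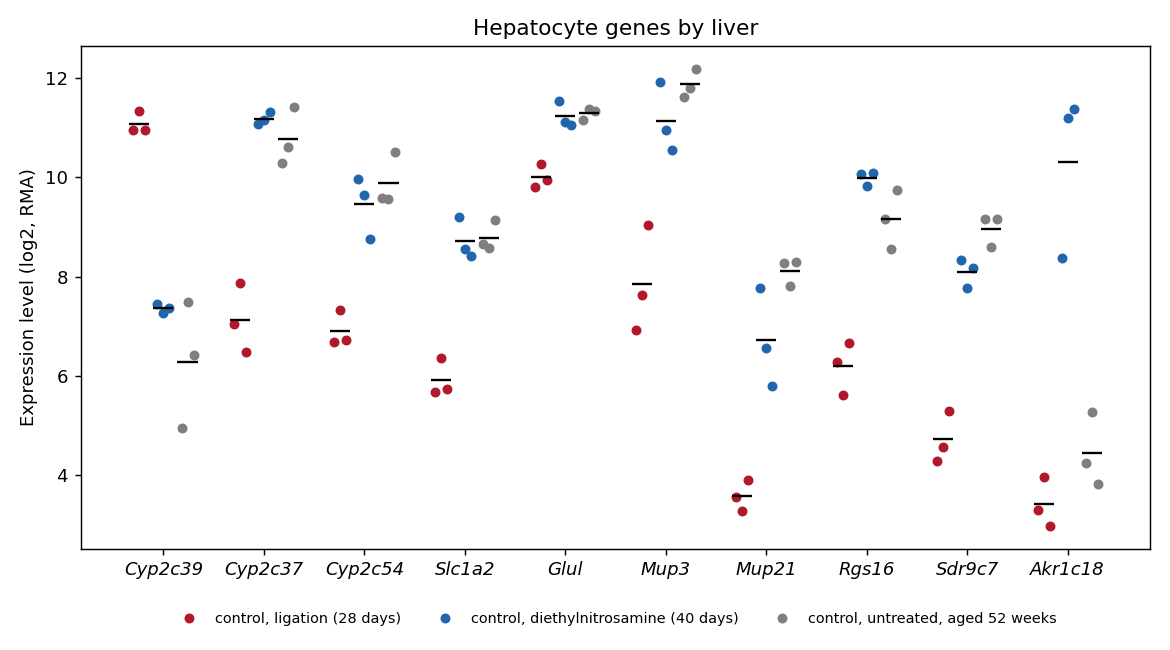
Log2 expression by liver for 10 hepatocyte genes, drawn as for the matrix genes (red ligated, blue diethylnitrosamine, grey untreated at 52 weeks, 3 livers each, bars are means). Cyp2c39 is higher in the ligated livers and the other 9 genes are lower. For Akr1c18 the diethylnitrosamine livers, at 8.37 to 11.37, lie above the untreated ones at 3.82 to 5.28.

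Lipid genes that were called were lower after ligation. Of 26 genes of fatty acid oxidation and PPARalpha, 0 were called higher and 2 lower, with a median of -0.42. Ppara, the fatty acid receptor itself, stood at 8.60, 8.34 and 8.44 against 9.79, 9.37 and 9.38, and fell by 1.05 ± 0.15 (limma adjusted p = 0.021). Vnn1, a pantetheinase and PPARalpha target, stood at 6.88, 6.83 and 7.25 against 10.32, 9.09 and 8.70. Of 27 genes of fatty acid and triglyceride synthesis 2 were called lower, with a median of -0.20 and with 9 differences positive and 18 negative. That median was 0.04 without diethylnitrosamine liver 1 and 0.20 with the identifier prefix as a term. Mlxipl, the carbohydrate-sensing factor ChREBP, stood at 8.54, 8.62 and 8.74 against 9.74, 9.55 and 9.50, and Dgat2, which completes triglyceride synthesis, at 10.19, 10.01 and 10.24 against 10.92, 10.85 and 11.00. The groups of these 4 genes did not overlap, as for every called gene. Without ligated liver 1 or diethylnitrosamine liver 2, 0 members of either lipid list were called. The median of the oxidation list was -0.19 without diethylnitrosamine liver 1 and -0.26 without ligated liver 1. Of 18 cholesterol synthesis genes 0 were called, and the median of -0.16 turned to 0.38 without ligated liver 2. The list mean within the ligated group (8.60, 7.36 and 9.48) spanned all diethylnitrosamine livers (8.26, 9.02 and 8.72).

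Interferon-induced genes were lower after ligation in 3 calls. Of 28 measured members of the interferon response, 0 were called higher and 3 lower, with a median difference of -0.33 and 23 negative differences. Ifit1, which binds viral RNA lacking the cellular cap, stood at 5.69, 5.45 and 5.72 against 7.24, 7.01 and 6.63, and fell by 1.34 ± 0.17 (limma adjusted p = 0.0155). Ifit3, its partner, stood at 6.07, 6.09 and 6.39 against 7.18, 7.57 and 6.89, and Isg15, a ubiquitin-like modifier, at 4.92, 4.88 and 5.18 against 5.88, 5.89 and 5.55. The groups did not overlap for these 3 genes, as for every called gene. The untreated livers spread widely, from 5.64 to 7.88 for Ifit1, so that 1 of them exceeded the diethylnitrosamine group. Without ligated liver 1 or diethylnitrosamine liver 2 none of the 28 was called, and without ligated liver 2 or diethylnitrosamine liver 1 or 3 it was 1.

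The start regions of these 3 genes are shown because interferon-stimulated genes carry a known response element there. Each is the 250 bases before the RefSeq start in GRCm38.p6, written along the gene's strand, at chr19:34640639-34640888 (plus) for Ifit1, chr19:34583279-34583528 (plus) for Ifit3 and chr4:156200819-156201068 (minus) for Isg15. Capitals mark GAAANNGAAA on either strand, where N is any base.
Ifit1: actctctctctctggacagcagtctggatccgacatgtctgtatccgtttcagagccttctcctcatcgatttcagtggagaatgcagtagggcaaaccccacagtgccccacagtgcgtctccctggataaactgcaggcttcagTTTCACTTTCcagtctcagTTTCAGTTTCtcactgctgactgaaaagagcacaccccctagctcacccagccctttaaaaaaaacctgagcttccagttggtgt
Ifit3: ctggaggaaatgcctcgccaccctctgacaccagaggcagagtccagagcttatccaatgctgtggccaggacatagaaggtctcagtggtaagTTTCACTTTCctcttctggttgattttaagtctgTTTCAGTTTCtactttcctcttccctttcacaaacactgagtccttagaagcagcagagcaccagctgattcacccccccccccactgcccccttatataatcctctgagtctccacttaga
Isg15: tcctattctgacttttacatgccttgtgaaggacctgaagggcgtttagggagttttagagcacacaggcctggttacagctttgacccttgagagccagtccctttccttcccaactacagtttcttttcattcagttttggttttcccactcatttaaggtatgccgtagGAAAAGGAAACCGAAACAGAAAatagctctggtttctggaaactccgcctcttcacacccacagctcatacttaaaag
Ifit1 held 2 matches, 104 and 85 bases upstream, Ifit3 held 2, at 156 and 122, and Isg15 held 3 that overlap, at 78, 72 and 66. This motif is in 2.98% of the 32851 windows, and 2 or more matches are in 0.18%. Those shares are per window, whereas a gene with several starts was counted if any of its windows matched. By that count, 12 of 21 interferon response genes with a window held a match. Their median difference was -0.502, with 10 of 12 negative, and that of the 9 without a match was -0.322, with 9 of 9 negative. The genes with and without a match were not compared by a test.

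Stress and signalling lists had few calls. Of 19 AP-1 and immediate early genes, 3 were called higher and 0 lower, with a median of 0.74. Myc stood at 7.91, 7.94 and 7.40 against 6.12, 6.86 and 6.06, Jund at 8.22, 7.88 and 8.13 against 7.25, 7.34 and 7.43, and Klf6 at 8.56, 7.98 and 8.33 against 6.84, 7.19 and 7.46. None of the 19 was called without ligated liver 1 or diethylnitrosamine liver 1 or 3, 1 without diethylnitrosamine liver 2 and 6 without ligated liver 3. Of 25 acute phase genes 2 were called higher (median 0.61), Lcn2 and Orm2. Orm2, a plasma glycoprotein, stood at 11.74, 12.28 and 11.25 against 9.55, 9.34 and 8.57, a difference of 2.60 ± 0.32 (limma adjusted p = 0.0142). The count of 2 was 0 without ligated liver 1 or diethylnitrosamine liver 2, 1 without ligated liver 2 or diethylnitrosamine liver 3, 3 without diethylnitrosamine liver 1 and 4 without ligated liver 3, and the median was 0.31 without diethylnitrosamine liver 2. The 21 NF-kB targets had a median of 0.63 with 0 called, of which Nfkbie had the smallest p (6.95, 6.29 and 6.61 against 5.72, 5.79 and 5.87, limma adjusted p = 0.0561).

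Genes tied to DNA damage and the cell cycle gave 1 call. Of 25 p53 targets 1 was called higher and 0 lower, with a median of 0.15. That gene was Cdkn1a, the cell cycle inhibitor p21, at 9.72, 8.60 and 8.92 after ligation and 7.81, 6.83 and 7.56 after diethylnitrosamine, a difference of 1.68 ± 0.34 (limma adjusted p = 0.0493). The call was lost in all 6 fits that left out 1 liver. Of 18 DNA repair genes 0 were called (median -0.05). Mgmt, which removes alkyl groups from guanine, stood at 6.33, 6.19 and 6.46 against 7.36, 6.82 and 6.61, with the groups apart but not called (limma adjusted p = 0.16). Of 28 cell cycle genes 0 were called (median 0.18), with 24 differences positive and 4 negative. The smallest p-values among them were for Tk1 (6.18, 6.20 and 6.02 against 6.57, 6.63 and 6.64) and Rrm2 (4.71, 5.33 and 5.05 against 6.10, 5.77 and 5.66), both of nucleotide synthesis. Tk1 and Rrm2 were among the 4 negative differences, unlike most of the list.

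Hmox1, the haem oxygenase, was the 1 gene called higher among 18 genes of iron handling and among 19 genes of NRF2 and glutathione, at 9.77, 9.43 and 9.50 against 8.31, 8.75 and 8.89. It was called in 0 of the 6 fits that left out 1 liver. The medians of those lists were 0.19 and -0.08. The 19 ER stress genes (median -0.04), the 22 Notch and YAP targets (0.17) and the 16 circadian clock genes (-0.12) had 0 called. Asns, asparagine synthetase, had the largest difference of these lists, at 7.48, 8.94 and 8.17 against 4.36, 6.59 and 5.78 (2.62 ± 0.57, limma adjusted p = 0.06). The clock gene Npas2 stood at 6.03, 5.47 and 6.74 against 5.17, 4.14 and 4.23, and the untreated livers were above both at 7.23 to 7.73. The time of day at which livers were taken is not in the labels.

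Markers of tissues that could be carried over at dissection gave 1 call. The 15 exocrine pancreas genes had list means of 3.18 to 3.38 in ligated and 3.26 to 3.56 in diethylnitrosamine livers, with 0 called. Of 15 adipose and mesothelium genes 1 was called higher, Wt1, a mesothelial and stellate cell factor (4.76, 4.70 and 4.47 against 3.75, 4.02 and 4.03). The other 14 differed by -2.09 to 1.71, and the median of 0.02 turned to -0.09 when arrays were centred. The 11 erythroid genes had 0 called and 11 negative differences from -1.59 to -0.05 (median -0.35). Diethylnitrosamine liver 3 had the highest list mean, 5.50 against 4.38 to 4.66 in the other 5 livers, and without it the median was -0.02. The part of blood content in other differences was not tested. The 4 sex chromosome genes had differences of -0.01 to 0.13.

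**Figure D4:**
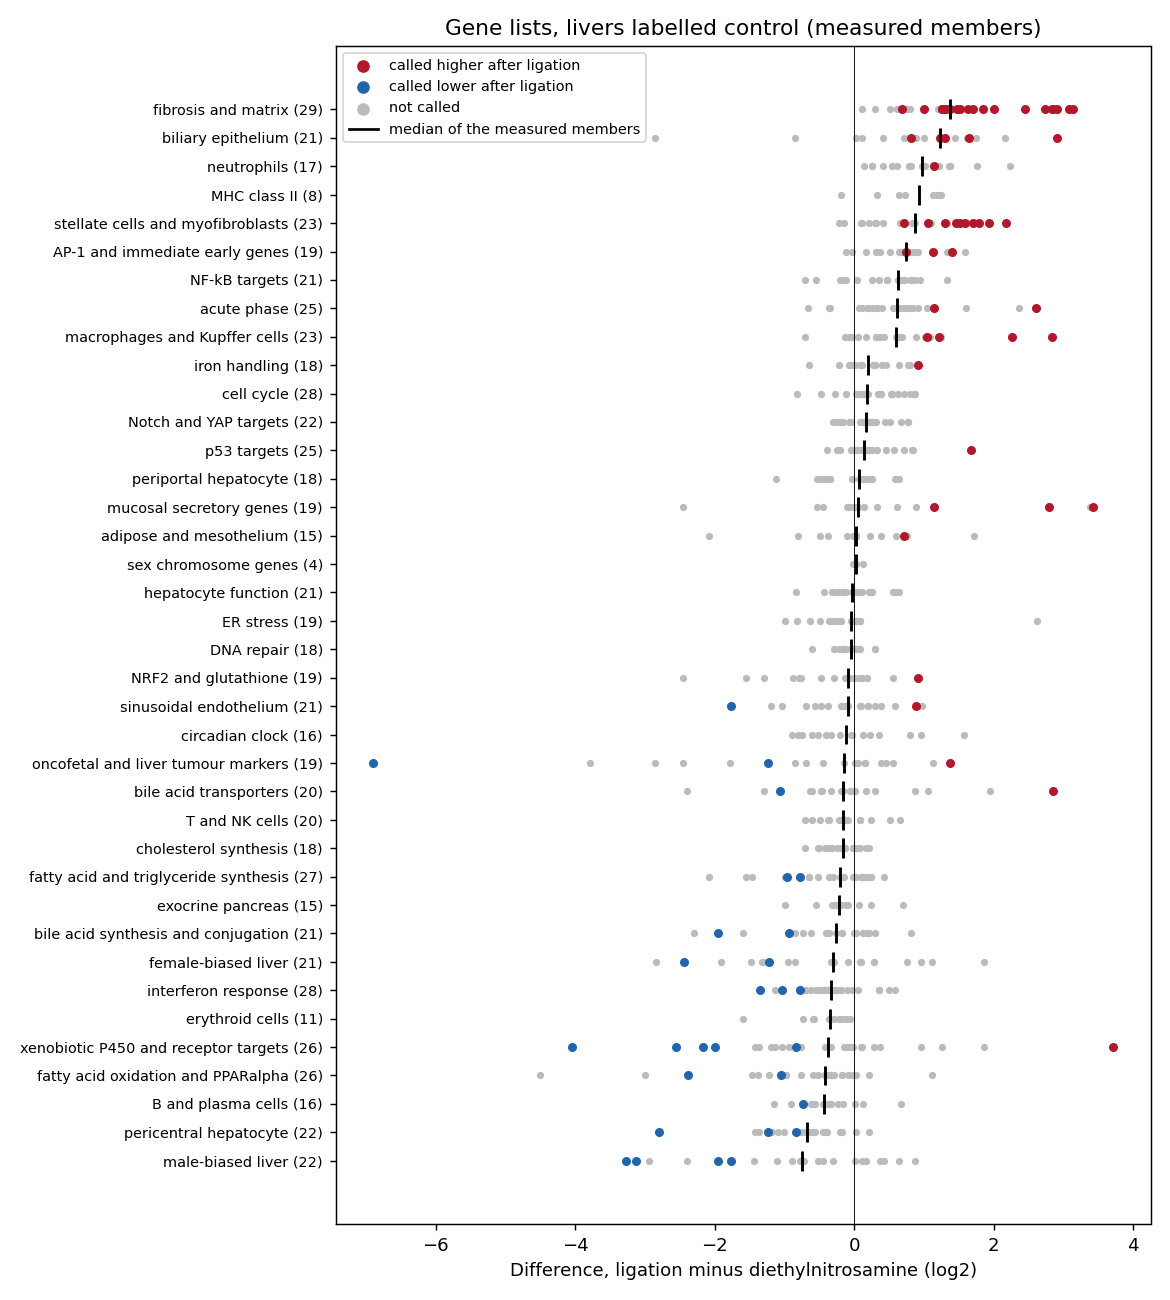
Difference between ligated and diethylnitrosamine livers (log2, x axis) for every measured member of 38 gene lists, ordered by the list median (black bar). Red points were called higher, blue called lower and grey not called, and the number of measured members follows each name. Fibrosis and matrix has the highest median, 1.38, and male-biased liver the lowest, -0.74.

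A few of the highest genes belonged to no list. Wdr72, a protein of vesicle traffic and enamel formation, stood at 6.98, 6.82 and 6.49 against 3.21, 3.78 and 3.52, a difference of 3.26 ± 0.19 (limma adjusted p = 0.000736). It was called in all 6 fits that left out 1 liver, and untreated livers (3.31, 4.46 and 3.66) were with the diethylnitrosamine group. Dab1, an adaptor of reelin signalling, stood at 8.84, 7.24 and 8.38 against 4.55, 5.59 and 5.82. It was called in 2 of the 6 fits.

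The same contrast was available in JNK knockout livers, from 6 other arrays. There 145 genes were higher after ligation (0.77%) and 59 lower (0.313%). Of the 327 genes higher in livers labelled control, 48 were also called higher in the knockouts, which is 14.7% of the first list and 33.1% of the second. Of the 139 lower genes, 11 were called lower in both (7.91% and 18.6%), and 0 genes were called in opposite directions. The median difference of the 327 genes was 1.10 in livers labelled control, where they were selected, and 0.66 in knockouts, with 307 of them positive. For the 139 lower genes it was -1.03 and -0.56, with 125 negative in the knockouts. The median of all genes in the knockouts was 0.00.

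The diethylnitrosamine-treated JNK knockout liver numbered 3 stood apart in sex-linked genes, with Xist at 10.38, Uty at 2.81 and Eif2s3y at 2.80, whereas the other 5 knockout livers had Xist at 2.35 to 3.87 and Uty at 6.39 to 6.88. Without it, 73 genes were higher and 24 lower in the knockouts, and 22 and 5 of these were shared with livers labelled control. Fewer arrays entered that fit. Single other arrays moved the knockout counts as far. They were 836 and 490 without diethylnitrosamine knockout liver 2, and 2 and 1 without ligated knockout liver 3.

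The matrix list was called higher in part in the knockouts too. Of the 29 fibrosis and matrix genes 10 were called higher there, with a median of 1.26. Col1a1 stood there at 9.87, 9.93 and 9.84 against 5.86, 8.09 and 6.57, a difference of 3.04 ± 0.51 (limma adjusted p = 0.0513), and the difference between genotypes was -0.05 ± 0.59. Slc51b differed by 2.54 ± 0.24 and Retsat by -3.03 ± 0.20 in the knockouts. Other named genes had a smaller contrast in the knockouts, without an interaction call. Cyp2c39 stood at 6.90, 6.40 and 7.17 against 6.75, 5.13 and 8.10 in the knockouts, with overlapping groups. Its difference between genotypes, -3.55 ± 0.76, was not called (limma adjusted p = 0.237). Akr1c18 was scattered in the diethylnitrosamine-treated knockouts, at 7.03, 10.05 and 3.40, against 5.78, 6.75 and 5.73 after ligation (interaction adjusted p = 0.527 in limma). The 3.40 is that of the liver with high Xist, and the 7.03 and 10.05 lay above every ligated knockout. Dab1 had 4.28, 3.97 and 4.09 against 4.14, 4.61 and 4.18 in the knockouts (interaction adjusted p = 0.151 in limma).

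A limma interaction test of the contrast between genotypes called 9 genes (0.0478%). Mybl1, which encodes a transcription factor of the MYB family, stood at 6.27, 6.37 and 6.37 in ligated and at 4.04, 4.02 and 3.98 in diethylnitrosamine livers labelled control, and at 4.52, 4.84 and 4.53 against 3.78, 4.01 and 4.05 in knockouts. The contrast was thus positive in both genotypes and smaller in the knockouts by 1.64 ± 0.16 (limma adjusted p = 0.00504). A2m, alpha-2-macroglobulin, stood at 4.54, 5.12 and 4.24 against 4.25, 4.62 and 5.47 in livers labelled control and at 8.45, 7.19 and 7.35 against 3.97, 4.36 and 4.29 in knockouts. Slc2a2, the hepatocyte glucose transporter GLUT2, stood at 10.71, 10.74 and 10.82 against 10.90, 10.86 and 10.81 in livers labelled control and at 9.24, 9.43 and 9.30 against 10.52, 10.44 and 10.85 in knockouts. Both genes therefore overlapped in livers labelled control and were apart in knockouts. Without the diethylnitrosamine-treated knockout liver 3, 12 genes were called, 8 of them among the 9, and A2m had an adjusted p of 0.0817 in limma.

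**Figure D5:**
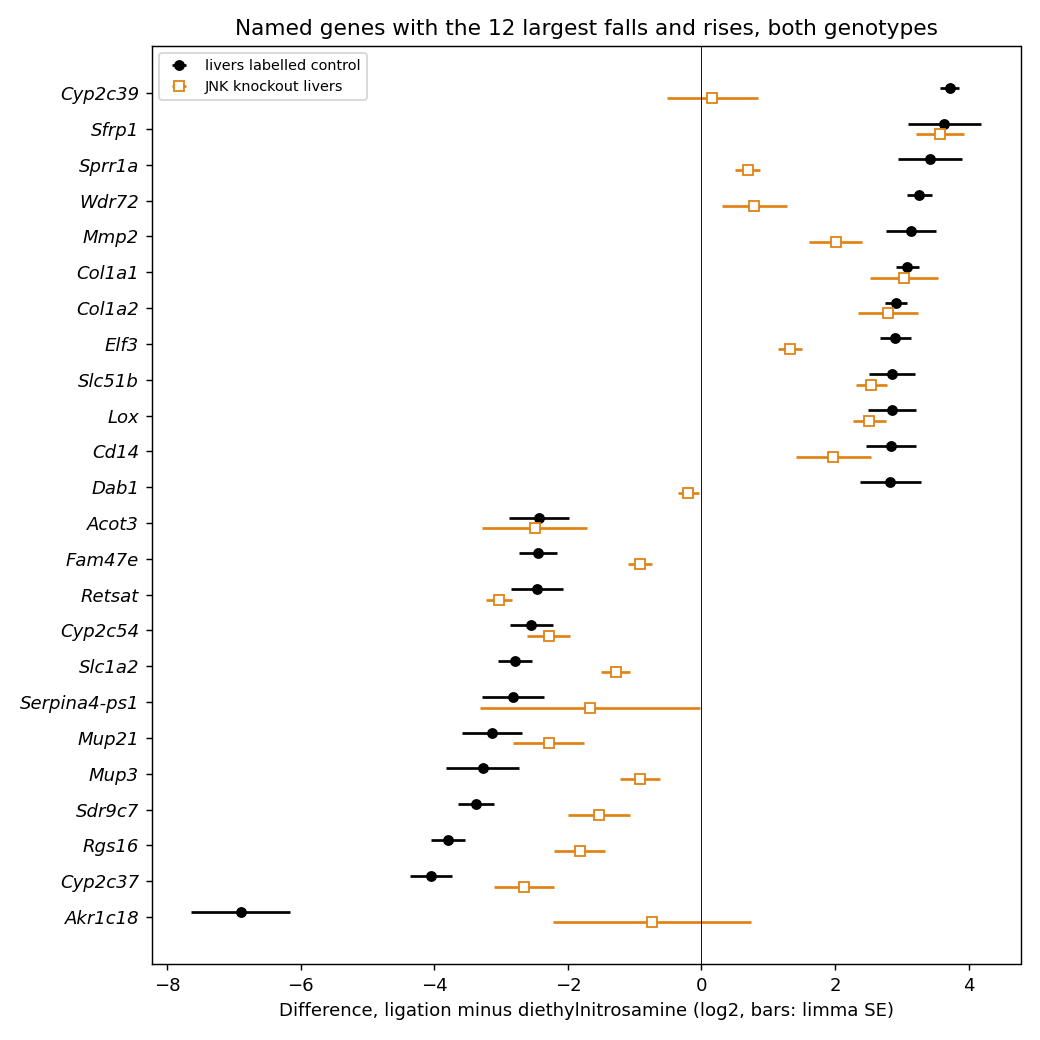
Difference between ligation and diethylnitrosamine (log2, x axis, bars are limma SE) for the 12 largest named rises and 12 largest named falls, in livers labelled control (black circles, where the genes were selected) and JNK knockout livers (open orange squares), 3 against 3 livers each. Col1a1 has 3.09 and 3.04, Cyp2c39 3.72 and 0.16, and Akr1c18 -6.90 and -0.74.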

How the data were processed

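Each of 24 livers was measured on 1 array. The deposited values are log2 expression levels per probe set, for which the submitters' processing notes name RMA, a method that subtracts background, equalises the distribution of probes across arrays and combines the probes of a set. Its program, its probe grouping and which arrays were processed jointly are not given in the sources used. Of 35556 probe sets, 21218 had 1 gene symbol in the platform annotation, 1881 several and 12457 none, and 21185 matched a RefSeq gene of GRCm38.p6. They stood for 18820 genes. For 1386 genes with several probe sets, the brightest by its mean over 24 arrays was taken. Detection calls were not used, and precision is limited by the number of arrays. Within each group of livers labelled control, arrays correlated at 0.979 to 0.984.

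The contrast was fitted on its 6 arrays with limma 3.58.1 in R 4.3.3, and the difference between genotypes as an interaction over 12 arrays. Tests were two-sided, adjusted by Benjamini-Hochberg over all genes, and adjusted p-values under 0.05 counted as calls, without a fold threshold. An exact permutation test of 3 against 3 livers cannot give a p below 0.1. Procedures were tested on simulated data. Windows were aligned with Biopython 1.88.

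From called genes without overlap of the groups, the 12 with the largest rise and the 12 with the largest fall were named, then up to 3 called members of each of 38 lists by smallest p, at most 2 members of a list without calls, and Mapk8, Mapk9 and Ikbkg. Predicted-gene, olfactory, vomeronasal and small RNA names were left out. Other genes named (such as Col3a1, Loxl1, Timp1, Acta2, Krt19, Cyp2c29, Cyp2c50, Cyp7a1 and Ifi202b) were chosen after their values were seen. The comparison, members and lists were chosen with earlier results of these data known. List genes without a probe set were not used here. Replicate numbers did not pair the livers: deviations of same-numbered livers correlated at -0.15, -0.05 and -0.19. Alternatives were another scaling, a filter on dim genes, all 24 arrays, array weights, another variance prior, mean probe sets, the replicate number, the identifier prefix, and leaving out each liver.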

Additional observations from a re-analysis of the deposited data

Results flagged for a closer look

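In 9 genes the difference between ligation and diethylnitrosamine itself differed between JNK knockout livers and livers labelled control, by limma's interaction term. On the log2 scale, knockout minus control, these differences of differences were 3.60 for A2m, -3.15 for Abhd1, -2.14 for Catspere2, 2.41 for Chrm3, 3.64 for Efna3, -1.35 for Gpd1l, 3.08 for Mmrn1, -1.64 for Mybl1 and -1.18 for Slc2a2. Of the 9 genes, 5 were also called in livers labelled control. Abhd1, a hydrolase gene, stood at 8.49, 9.17 and 8.91 after ligation and at 6.28, 5.96 and 6.46 after diethylnitrosamine in livers labelled control, against 5.75, 5.79 and 5.67 and 6.45, 6.05 and 6.29 in knockouts. Catspere2, from a family of sperm calcium channel subunits, stood at 5.20, 5.12 and 4.74 in ligated livers labelled control and at 2.55 to 3.16 in the other 9 livers of the fit. Chrm3, a muscarinic receptor, stood at 3.92, 3.86 and 3.64 in ligated livers labelled control and at 4.38 to 6.32 in the other 9. For Abhd1, Catspere2 and Chrm3 the ligated livers labelled control thus lay outside the range of the other 9 livers of the fit. Ephrin gene Efna3 stood at 8.38, 8.10 and 8.65 in ligated knockouts and at 4.68 to 6.45 in the other 9 livers. Mmrn1, multimerin 1, stood at 6.49, 6.03 and 5.02 in ligated knockouts and at 2.44 to 4.13 in the other 9. Gpd1l stood at 7.19, 7.25 and 7.14 against 6.48, 6.73 and 6.70 in livers labelled control and at 5.81, 5.82 and 5.77 against 6.37, 6.65 and 6.76 in knockouts.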

How the results depend on the processing

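Depth cannot be given for arrays. Levels at the low or high end of the array's range can compress differences, 3 livers a group limit precision, and the cause of each change below was not tested. In livers labelled control the 327 higher and 139 lower genes became 576 and 256 with array weights and 10 and 5 with the identifier prefix as a term, and the lower genes became 295 with all 24 arrays. Leaving out 1 liver gave 45 to 610 higher and 11 to 248 lower genes. In JNK knockouts the 145 and 59 genes became 1337 and 1145 with array weights, the lower ones 90 with all 24 arrays, and leaving out 1 liver gave 2 to 836 and 1 to 490. The 9 genes of the interaction became 68 with array weights, 4 without dim genes, 5 with the prefix term and 2 to 26 when 1 liver was left out, 26 being without diethylnitrosamine liver 1. The replicate numbers did not pair the livers. With the replicate number as a block, 82 genes were higher and 27 lower in livers labelled control, 1 and 0 in knockouts, and 7 in the interaction. Other scalings, the variance prior and mean probe sets kept every one of these counts within 1.5 times. Of the 59 called genes picked by the naming rule, 0 changed direction under any alternative. All 59 kept their call with array weights, 56 with quantile normalisation, 53 after centring, 42 with all 24 arrays, 26 with the block and 9 with the prefix term. From 14 to 52 kept it when 1 liver was left out.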

Other observations

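Ifi202b, an interferon-inducible gene on none of the lists, stood at 4.76, 5.11 and 4.85 in the ligated livers labelled control and at 2.29, 2.13 and 2.64 after diethylnitrosamine, a difference of 2.55 ± 0.17 (limma adjusted p = 0.00124). The untreated livers aged 52 weeks had 2.53, 2.17 and 2.24. Among the JNK knockouts, the diethylnitrosamine-treated liver 3, the one with high Xist, stood at 4.60 and the other 5 at 2.19 to 2.40. Whether these livers differed in genetic background was not tested. Cyp2c68, a further gene of the Cyp2c subfamily, stood at 7.53, 6.92 and 8.31 after ligation and at 9.24, 9.68 and 9.76 after diethylnitrosamine, and fell by 1.97 ± 0.33 (limma adjusted p = 0.0295).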
